A study of Mus musculus with 18 samples.

Results

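The Frizzled receptor family was followed in mouse embryonic stem (ES) cells grown in 3D culture. The members were taken by gene name: the 10 genes Fzd1 to Fzd10, each found once among the 49671 genes of the count table, and all 10 had enough counts to be tested. Frizzleds are 7-pass membrane proteins whose extracellular cysteine-rich domain binds Wnt ligands. Together with the co-receptors Lrp5 and Lrp6 they pass the signal to Dishevelled, which holds back the kinase GSK3 and so stabilises β-catenin, and some members also act in planar cell polarity. In ES cell culture Wnt signalling supports naive pluripotency, and in the embryo after implantation it is needed to form the primitive streak.

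RNA was sequenced from 18 samples in 6 groups of 3. Wild-type E14 ES cells (strain 12910la, passage 20) were embedded in Matrigel, a gel of basement membrane, and kept for 48 h in N2B27 medium. DMSO was the solvent control, CH held 3 µM CHIR99021, a GSK3 inhibitor that activates Wnt/β-catenin signalling below the receptor, and 2i held 3 µM CHIR99021 with 0.4 µM of the MEK inhibitor PD0325901. In Fgf2/Activin, cells received Fgf2 (12 ng/ml) and also 20 ng/ml of Activin A. The other 2 groups were Esrrb fl/fl ES cells (from Acr-EGFP transgenic mice, passage 25) with a tamoxifen-inducible Cre, left untreated (Esrrb floxed) or given 4-hydroxytamoxifen (4OHT) for 1 day before 3D culture (Esrrb 4OHT), and both were then kept in 3 µM CHIR99021 for 24 h. All cells had been maintained in 2i with Lif before the experiment, so DMSO is a withdrawal of 2i and not an untreated state. CH kept the GSK3 inhibitor and had the MEK inhibitor withdrawn, 2i kept both, and Fgf2/Activin kept neither. No sample from before the 3D culture was sequenced. Words such as rose and fell therefore name differences between parallel cultures and not changes over time. The wild-type and Esrrb fl/fl groups differ in line, passage, hours of culture and depth, which cannot be told apart, so their levels are set side by side without a test.

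The total count per sample ranged from 25388139 to 37158661 in wild-type and from 19915222 to 20140699 in Esrrb fl/fl cells. Levels are library-scaled counts (CPM, the count of a gene relative to the total of its sample) after TMM scaling over all 18 samples. A gene was called when edgeR's quasi-likelihood test gave a Benjamini-Hochberg adjusted p under 0.01 over all genes tested and an absolute log2 fold change above 1. Numbers of genes at an unadjusted p under 0.05 or called by DESeq2 are also given, but no share over all genes was computed for these. Pou5f1, which encodes Oct4 and marks pluripotent cells, had a mean of 601 CPM in DMSO, 842 in CH, 859 in 2i, 754 in Fgf2/Activin, 1190 in Esrrb floxed and 847 in Esrrb 4OHT cells, so this marker of the labelled cell type was present in each group. The sample numbered 1 stood apart from numbers 2 and 3 in each of the 6 groups: the chi-square of their counts per gene was between 11.8 and 65.9 for pairs with number 1 and between 1.46 and 8.57 for numbers 2 and 3. The Frizzled calls that change without these samples are given beside the results. In these bulk samples, fewer cells expressing a receptor and less receptor RNA per cell cannot be told apart.

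The make-up of the Frizzled mRNA differed between the groups. Levels of different genes were compared per kilobase of exon. In DMSO, Fzd7 had the highest level, 59.3 ± 4.82 CPM per kilobase (SD, n = 3), followed by Fzd2 with 20.2 ± 2.64 and Fzd5 with 4.48 ± 0.919, and no 2 neighbours in that order overlapped among their samples. Fzd7 made up 64.3% of the summed Frizzled level in DMSO (63.8% to 64.6% in the 3 samples) and Fzd10 made up 0.646% (0.535% to 0.742%). In CH the order was Fzd10, Fzd7, Fzd5 and Fzd2. Fzd10 there made up 50.3% (44.8% to 55.7%) and Fzd7 23.3% (16.9% to 28.3%). In 2i the order of these 4 was the same, with 42.9% for Fzd10, 29.1% for Fzd7 and 16.6% for Fzd5. Fgf2/Activin kept the DMSO order at the top, with 64.6% for Fzd7, 16.6% for Fzd2 and 3.19% for Fzd10. Fzd7 was also the highest in Esrrb floxed cells, with 47.1% against 24.8% for Fzd10, whereas in Esrrb 4OHT cells Fzd10 made up 55.0% and Fzd7 22.7%. The summed level itself was 92.3 ± 7.96 CPM per kilobase in DMSO, 85.2 ± 7.37 in Fgf2/Activin, 61.9 ± 0.113 in 2i, 55.7 ± 2.30 in CH, 47.4 ± 3.12 in Esrrb floxed and 70.8 ± 6.62 in Esrrb 4OHT cells (SD, n = 3 each).

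**Figure D1:**
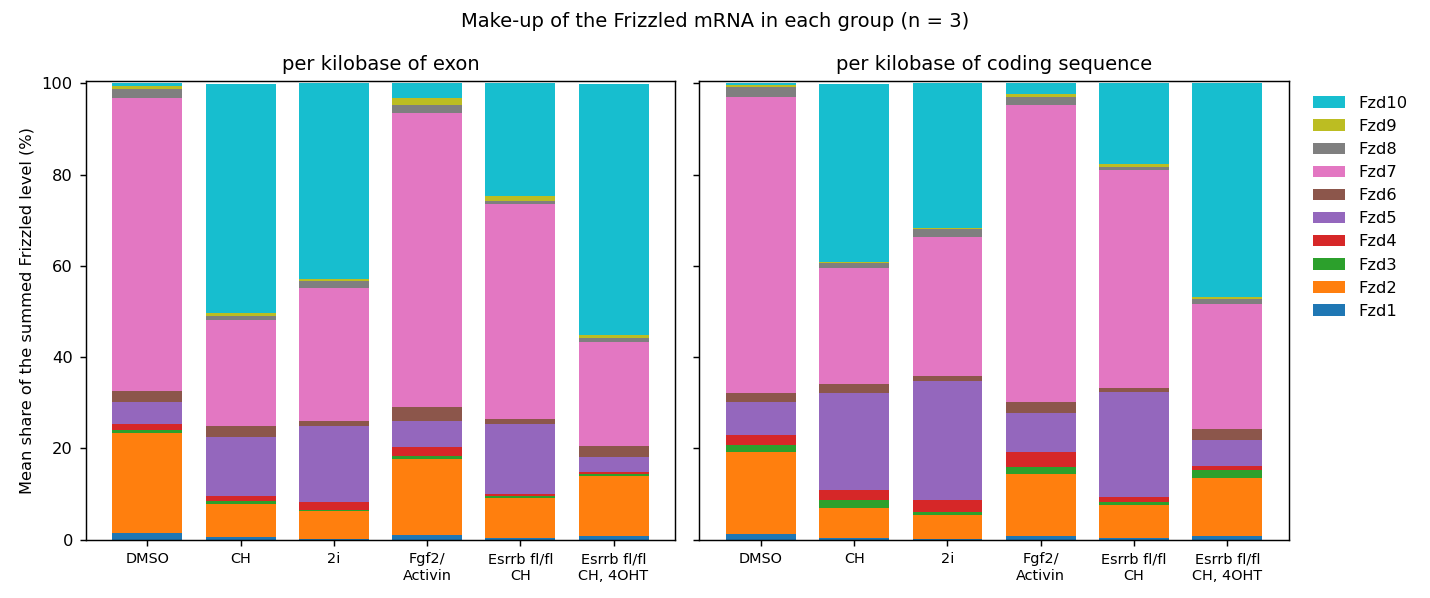
Mean share of each Frizzled in the summed Frizzled level of the 6 groups (percent, n = 3 samples per group), with levels taken per kilobase of exon on the left and per kilobase of coding sequence on the right. Fzd7 takes 64.3% in DMSO and 64.6% in Fgf2/Activin on the left, and Fzd10 takes 50.3% in CH and 55.0% in Esrrb 4OHT cells.

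Counted over coding length instead, the highest member stayed the same in all 6 groups, but the shares of Fzd10 and Fzd7 in 2i came closer, at 31.8% and 30.6%, and their samples overlapped. The share of Fzd5 was larger over coding length, at 26.0% in 2i and 21.2% in CH, and in Esrrb floxed cells its 23.0% stood above the 17.8% of Fzd10. These shares are descriptions and carry no test, since the exon length in the annotation may not be the length transcribed in these cells.

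The first comparison set CH, which kept the GSK3 inhibitor of the maintenance medium, against DMSO, which did not. Of the 10 members, 1 was higher in CH than in DMSO and 4 were lower, where 7.51% of the 16413 genes tested were called higher and 10.2% lower. The median log2 fold change of the members was -0.82, against 0.00 over all genes tested. The samples of CH and DMSO did not overlap for 9 of the 10 members, the exception being Fzd9, and for 49.7% of all genes tested.

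Fzd10 rose. It had 2.41, 1.81 and 1.61 CPM in the DMSO samples 1 to 3 (90, 58 and 42 counts) and 105, 91.9 and 77.4 CPM in CH (3038, 2791 and 1908 counts). Every CH sample lay far above every DMSO sample, and the fold change was 45.9 (log2 5.52, SE 0.18, adjusted p = 1.34e-08, edgeR quasi-likelihood). Fzd10 (ENSMUSG00000081683, chr5:128600844-128604093 on the plus strand of GRCm38) is a single-exon gene. By the usual grouping of Frizzled proteins, taken here as background and not tested, it belongs with Fzd4 and Fzd9. Those relatives had lower values in CH: Fzd4, the receptor of Norrin in retinal vessels, went from 8.26 ± 1.15 to 4.51 ± 1.05 CPM (log2 fold change -0.89, SE 0.21, adjusted p = 0.00499), which missed the minimum fold. Without CH replicate 1, Fzd4 was called at -1.10 (adjusted p = 0.0018). Fzd9 had 1.39 ± 0.461 CPM in DMSO and 0.852 ± 0.369 in CH, between 17 and 52 counts per sample, and was not called (adjusted p = 0.124). Without the samples numbered 1 in all groups it was called, at -1.38 (adjusted p = 0.00031).

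Fzd1, Fzd2 and Fzd7, which form a subfamily of close relatives, were all lower in CH. Fzd7, a main Frizzled of pluripotent cells, had 290, 246 and 271 CPM in DMSO and 44.2, 63.1 and 68.3 CPM in CH. The groups lay apart without overlap, with Fzd7 4.66-fold lower in CH (log2 fold change -2.22, SE 0.16, adjusted p = 2.27e-06). Fzd2 had 83.4, 64.1 and 74.7 CPM in DMSO and 15.9, 15.3 and 13.6 CPM in CH, a 5.00-fold lower level (log2 fold change -2.32, SE 0.13, adjusted p = 2.91e-07). Fzd1 was present at a low level throughout, with 3.24, 6.58 and 7.55 CPM in DMSO and 1.41, 1.12 and 0.974 CPM in CH. DMSO sample 1 had the lowest of its group and still lay above every CH sample (4.99-fold lower in CH, log2 fold change -2.32, SE 0.36, adjusted p = 0.00042).

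Fzd5 and Fzd8, a second pair of relatives, moved apart. Fzd8 fell, from 8.61, 10.6 and 11.7 CPM in DMSO to 3.51, 1.61 and 2.68 CPM in CH (log2 fold change -2.0, SE 0.32, adjusted p = 0.000446). Fzd5, which the embryo needs for its yolk sac vessels, had 38.0, 29.2 and 25.6 CPM in DMSO and 48.9, 48.8 and 51.6 CPM in CH. All CH samples were above all DMSO samples, but the log2 fold change of 0.67 (SE 0.15, adjusted p = 0.00457) stayed under the minimum. Fzd3 and Fzd6, the pair best known for planar polarity and the guidance of axons, were not called either, with log2 fold changes of -0.71 (SE 0.27, adjusted p = 0.0578) and -0.76 (SE 0.24, adjusted p = 0.0265). Without CH replicate 1, Fzd6 was called at -1.03 (adjusted p = 0.00587).

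**Figure D2:**
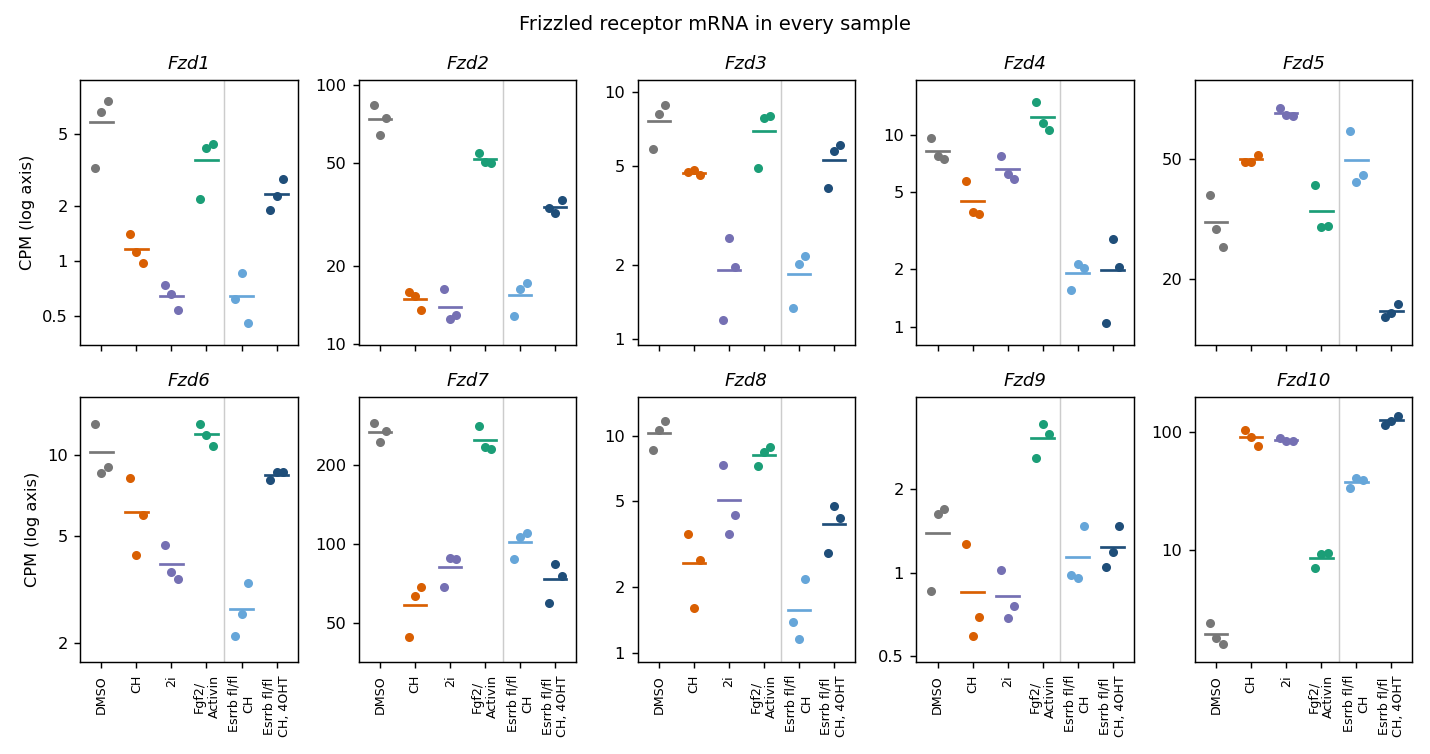
CPM of the 10 Frizzleds in every sample (log axis, scale differs by panel). Points are the 3 samples of a group in the order of their numbers and lines the group means. Fzd10 lies between 1.61 and 2.41 CPM in DMSO and between 77.4 and 105 CPM in CH, and Fzd7 goes the other way, from between 246 and 290 to between 44.2 and 68.3.

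Sequence before the start sites is shown for Fzd7, which fell in CH, and for Fzd5, which did not, as the bases next to the RefSeq start on GRCm38. For Fzd10, which rose, 30 bases around the motif are shown, since the RefSeq window lies inside the transcribed part of the GENCODE gene. RefSeq windows, running from 250 bases before the start to 50 after it, were at hand for 6 members (Fzd1, Fzd4, Fzd5, Fzd7, Fzd9 and Fzd10). Capitals mark the letters CTTTG, or CAAAG on the other strand, the core of the site bound by TCF/LEF factors, through which β-catenin acts.
Fzd7 (chr1:59481897-59482146, plus strand): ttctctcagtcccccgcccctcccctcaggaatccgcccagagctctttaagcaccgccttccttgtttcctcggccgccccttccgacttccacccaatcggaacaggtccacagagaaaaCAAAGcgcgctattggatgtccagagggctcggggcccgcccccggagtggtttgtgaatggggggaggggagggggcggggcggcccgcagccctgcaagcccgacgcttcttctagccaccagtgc
Fzd5 (chr1:64737752-64738000, minus strand): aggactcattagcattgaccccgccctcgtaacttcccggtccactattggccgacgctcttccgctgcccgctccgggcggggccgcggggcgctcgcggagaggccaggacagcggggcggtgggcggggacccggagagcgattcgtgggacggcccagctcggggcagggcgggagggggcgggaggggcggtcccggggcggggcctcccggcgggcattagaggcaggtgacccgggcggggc
Fzd10 (chr5:128600956-128600985, plus strand): ggaagaagaggcCAAAGtttgcgcgctgag

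The core stood in 3 of the 6 windows, those of Fzd1, Fzd7 and Fzd10, on either strand, and in 53.9% of all 32851 windows in the table, so both a member that rose and members that fell held it. The longer form CTTTGAT, which contains the core, was in none of the 6 and in 3.73% of all windows. AAGGTCA, the motif bound by Esrrb, was likewise in none of the 6 and in 4.72% of all windows. Each of the 6 windows held between 16 and 53 CpG and between 54.0% and 78.0% GC, against medians of 7 and 52.7% over all windows, and 31.4% of all windows held more CpG than the lowest of the 6. A match of letters is a description of the window and says nothing of binding.

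The second comparison set 2i, which kept the MEK inhibitor of the maintenance medium, against CH, which did not. With edgeR's test none of the 10 members was called in either direction between 2i and CH, where 0.317% of all genes were called higher and 1.67% lower, while 7 members had an unadjusted p under 0.05 and DESeq2 called 1 lower. Their median log2 fold change was -0.07. Fzd10 had 90.1, 84.2 and 84.6 CPM in 2i, all inside the range of CH (log2 fold change -0.08, SE 0.14, adjusted p = 0.85). Fzd3 came closest to a call: it had 4.72, 4.84 and 4.59 CPM in CH and 1.20, 2.57 and 1.95 CPM in 2i. The groups did not overlap and the log2 fold change was -1.30 (SE 0.29), but the adjusted p of 0.0195 missed the threshold. Fzd3 was called lower by DESeq2 (-1.29, adjusted p = 0.000331), with the replicate number as a block (-1.34, adjusted p = 0.000987, in a fit that called 3.25% of all genes lower and 0.841% higher) and without the samples numbered 1 (-1.05, adjusted p = 2.00e-04).

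The other members split by their values. Fzd5 had 73.8, 69.8 and 69.2 CPM in 2i, each above the 48.8 to 51.6 CPM of CH (log2 fold change 0.51, SE 0.15, adjusted p = 0.0706). Fzd7, at 81.6 ± 11.3 CPM in 2i and 58.5 ± 12.7 in CH, had a log2 fold change of 0.48 (SE 0.16, adjusted p = 0.107), and Fzd8 one of 0.95 (SE 0.31, adjusted p = 0.104). Fzd1 and Fzd6 had -0.86 (SE 0.39) and -0.65 (SE 0.25), and Fzd4 had 0.55 (SE 0.21). Fzd2 was at 13.9 ± 2.06 CPM against 15.0 ± 1.20 (log2 fold change -0.11, SE 0.13), and Fzd9 at 0.822 ± 0.177 against 0.852 ± 0.369.

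Targets of ERK, the kinase below MEK, were listed as a check on the inhibitor. Of 6 ERK targets, 3 were called lower in 2i than in CH and 5 with the replicate block (median log2 fold change -2.55). Egr1, an immediate early gene, fell from 154 ± 14.8 to 1.27 ± 0.450 CPM, and Dusp6, a phosphatase that feeds back on ERK, fell from 86.0 ± 6.43 to 24.6 ± 3.96. Wnt5b fell too, from 57.6 ± 3.44 to 22.4 ± 4.01 CPM (log2 fold change -1.36, SE 0.15, adjusted p = 0.000532). The Wnt5b call was lost with edgeR's glmTreat, which tests against a log2 fold change of 1 (adjusted p = 0.248). Of the 7 targets of β-catenin listed, 2 were called lower in 2i than in CH (3 with DESeq2 or the replicate block), with a median log2 fold change of -0.74. T fell from 540 ± 119 to 92.1 ± 20.0 CPM (log2 fold change -2.55, SE 0.23). Nkd1, an inhibitor of Dishevelled, was called at 2.36 ± 0.471 against 8.23 ± 3.62 CPM, a call lost without 2i replicate 1 (adjusted p = 0.0155), 2 (adjusted p = 0.0253) or 3 (adjusted p = 0.0167). The Nkd1 call was also lost with glmTreat (adjusted p = 0.17) and in the fit of only the 6 samples compared (0.0346). Axin2 had 170 ± 33.6 CPM in 2i and 197 ± 66.2 in CH and was not called.

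The third comparison set Fgf2/Activin, which drives ES cells towards the formative epiblast, against DMSO. Of the members, 1 was higher and none lower, where 0.902% of all genes were called higher and 0.347% lower (1.68% and 0.908% with the replicate block). Unadjusted p was under 0.05 for 3 members with higher and 1 with lower values, and DESeq2 too called 1 higher and none lower. The median log2 fold change of the members was 0.00. Fzd10 was the member called: it had 7.15, 9.41 and 9.59 CPM in Fgf2/Activin, all above the 1.61 to 2.41 CPM of DMSO (4.39-fold higher, log2 fold change 2.13, SE 0.17, adjusted p = 4.79e-05). That level remained under the 77.4 CPM of the lowest CH sample. Fzd9 reached its highest group mean here, 3.06 ± 0.431 CPM, with each sample above each DMSO sample (log2 fold change 1.13, SE 0.33, adjusted p = 0.0866). Fzd4 also had its highest mean, 12.3 ± 2.18 CPM, against 8.26 ± 1.15 in DMSO (adjusted p = 0.168). Fzd2 was at 54.9, 50.4 and 49.8 CPM, below the lowest DMSO sample at 64.1 (log2 fold change -0.53, SE 0.12, adjusted p = 0.0315). Fzd7 had 250 ± 28.6 CPM against 269 ± 21.9 (log2 fold change -0.12, SE 0.16).

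The fourth comparison, of 2i with Fgf2/Activin, set the naive culture against the formative one. It called 2 members higher in 2i and 6 lower, where 9.13% of all genes were called higher and 14.4% lower. The members' median log2 fold change was -1.62. This comparison shares the 2i samples with the second comparison and the Fgf2/Activin samples with the third, and these share CH and DMSO with the first, so the calls of these comparisons are not independent. Fzd10 was 9.87-fold higher in 2i (log2 fold change 3.30, SE 0.16, adjusted p = 6.67e-08). Fzd5 was called at 70.9 ± 2.53 against 33.6 ± 6.48 CPM (log2 fold change 1.07, SE 0.15, adjusted p = 0.000152), close to the minimum fold, and it was 0.99 and not called without Fgf2/Activin replicate 2 or replicate 3.

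Among the members called lower in 2i, Fzd7 had 68.6, 88.6 and 87.6 CPM against 283, 236 and 231 in Fgf2/Activin (log2 fold change -1.62, SE 0.16, adjusted p = 1.09e-05). Fzd2 had a log2 fold change of -1.90 (SE 0.13) and Fzd1 of -2.48 (SE 0.38), so the whole subfamily was lower. Fzd3, at 1.91 ± 0.686 against 6.91 ± 1.74 CPM (log2 fold change -1.85, SE 0.29), and Fzd6, at 3.92 ± 0.616 against 11.9 ± 1.16 (-1.61, SE 0.25), were called here though not between CH and DMSO. Whether these differences themselves differ between the comparisons was not tested. Fzd9 had 1.02, 0.687 and 0.756 CPM in 2i and 2.58, 3.43 and 3.16 in Fgf2/Activin (log2 fold change -1.90, SE 0.34, adjusted p = 0.000793). The uncalled members were Fzd4 (-0.91, SE 0.20, adjusted p = 0.00315) and Fzd8 (-0.70, SE 0.30, adjusted p = 0.0736). Fzd4 was called without 2i replicate 1 (-1.03, adjusted p = 0.00394) or without Fgf2/Activin replicate 3 (-1.0, adjusted p = 0.00479), and Fzd8 without the samples numbered 1 (-1.14, adjusted p = 2.15e-05).

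**Figure D3:**
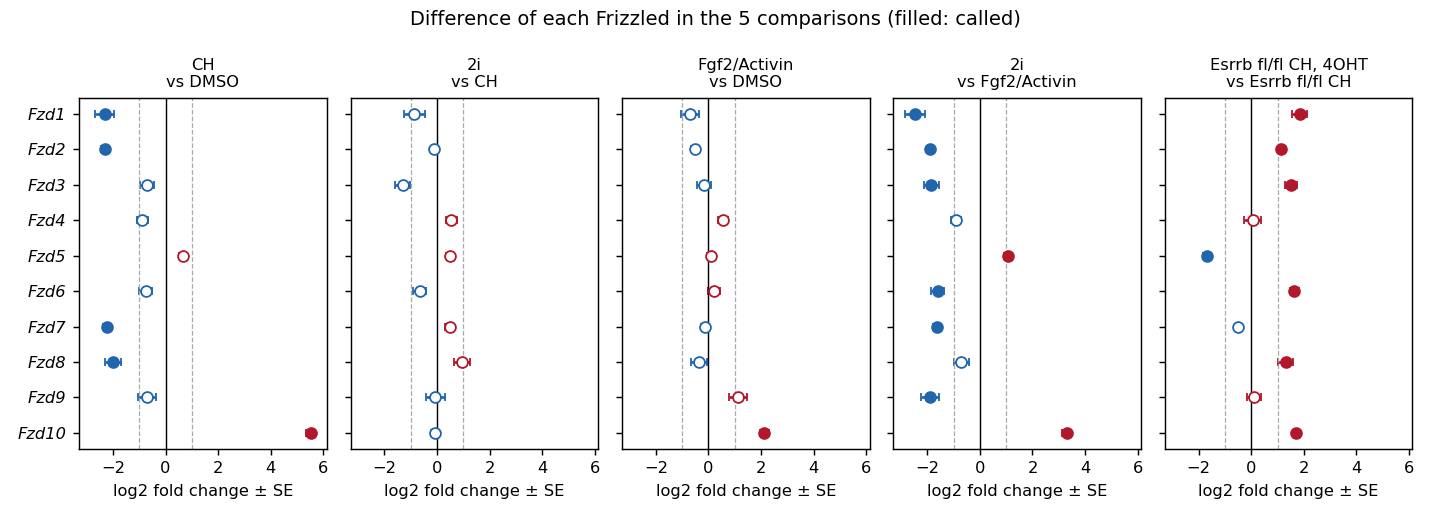
Log2 fold change of each Frizzled in the 5 comparisons, the first-named group over the second, with bars for the SE from edgeR's fit. Red marks higher and blue lower, filled points are called, and dashed lines mark the minimum fold. Fzd10 is at 5.52 for CH against DMSO, -0.08 for 2i against CH and 1.71 for Esrrb 4OHT against Esrrb floxed cells, where Fzd5 is at -1.67.

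The last comparison removed Esrrb, a nuclear receptor of the naive network downstream of Wnt, in cells that all received CH. The Esrrb gene itself had 2680, 2146 and 2109 counts (138, 108 and 107 CPM) in Esrrb floxed and 1211, 1333 and 1250 counts (58.1, 63.2 and 59.3 CPM) in Esrrb 4OHT cells. The level dropped without overlap, with a log2 fold change of -0.99 (SE 0.10, adjusted p = 7.44e-05) that just missed the minimum fold. It was called at -1.03 without Esrrb 4OHT replicate 2 and at -1.06 without Esrrb floxed replicate 2 or replicate 3. Counts over the whole gene do not separate transcripts with and without the deleted part, so this value does not measure the share of cells in which the gene was excised.

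Differences after 4OHT are those between treated and untreated parallel cultures, not between time points. After 4OHT, 6 Frizzleds were higher and 1 lower, where 12.8% of the 14893 genes tested were called higher and 3.87% lower. The median log2 fold change of the 10 members was 1.21, against 0.00 over all genes tested. Fzd10 had 34.0, 41.1 and 39.7 CPM in Esrrb floxed and 115, 126 and 139 CPM in Esrrb 4OHT cells. The groups were far apart, with Fzd10 3.27-fold higher (log2 fold change 1.71, SE 0.09, adjusted p = 3.29e-06), and the mean of 126 CPM was its highest of all groups. Fzd5 was the member that fell, from 62.0, 42.0 and 44.1 CPM to 15.0, 15.4 and 16.6 CPM (3.19-fold lower, log2 fold change -1.67, SE 0.15, adjusted p = 3.49e-05). This was the lowest group mean of Fzd5, and the 3 samples lay close together.

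Fzd6 had 2.12, 2.57 and 3.35 CPM in Esrrb floxed and 8.10, 8.63 and 8.63 CPM in Esrrb 4OHT cells (log2 fold change 1.64, SE 0.17, adjusted p = 7.50e-05), and its partner in planar polarity Fzd3 had 1.34, 2.01 and 2.18 against 4.08, 5.74 and 6.11 CPM (1.5, SE 0.23, adjusted p = 0.000622). Fzd1 rose from 0.644 ± 0.201 to 2.35 ± 0.467 CPM, on 9 to 17 counts per sample in Esrrb floxed cells (log2 fold change 1.84, SE 0.28, adjusted p = 0.00057). Fzd2 rose from 15.5 ± 2.35 to 33.9 ± 2.07 CPM (log2 fold change 1.12, SE 0.11, adjusted p = 6.37e-05), and without Esrrb floxed replicate 1 it stood at 1.00 and was not called. Fzd8 was called at 1.30 (SE 0.28, adjusted p = 0.00373), with samples of 1.39, 1.16 and 2.18 CPM against 2.88, 4.74 and 4.17. Its call was lost without Esrrb 4OHT replicate 2 (1.13, adjusted p = 0.0166) or replicate 3 (1.26, adjusted p = 0.015), and without Esrrb floxed replicate 1 (1.22, adjusted p = 0.0115) or replicate 2 (1.11, adjusted p = 0.0169). Tested against a log2 fold change of 1 with edgeR's glmTreat, Fzd6 and Fzd10 remained called higher, and Fzd1 (adjusted p = 0.025), Fzd2 (adjusted p = 0.417), Fzd3 (adjusted p = 0.0755) and Fzd8 (adjusted p = 0.396) did not. Fzd7, the relative of Fzd1 and Fzd2, had the opposite sign, with 87.9, 106 and 110 CPM in Esrrb floxed and 59.6, 84.1 and 75.7 CPM in Esrrb 4OHT cells (log2 fold change -0.49, SE 0.12, adjusted p = 0.00922), and was not called. Fzd4 (log2 fold change 0.05, SE 0.33) and Fzd9 (0.11, SE 0.26) had overlapping groups and few counts, between 19 and 60 per sample.

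Across the 6 groups the members thus had different ranges. Fzd10 varied the most, with 64.9 times as much in Esrrb 4OHT cells as in DMSO, and in the order Esrrb 4OHT, CH, 2i, Esrrb floxed, Fgf2/Activin and DMSO the one pair of neighbours with overlapping samples was CH and 2i. Fzd9 varied the least by this ratio, at 3.72, with the other members between 4.11 and 8.99. Fzd1, Fzd2, Fzd3, Fzd7 and Fzd8 had their highest mean in DMSO, Fzd4, Fzd6 and Fzd9 in Fgf2/Activin, and Fzd5 in 2i. The samples of DMSO and Fgf2/Activin overlapped for Fzd1, Fzd3, Fzd6, Fzd7 and Fzd8, so which of these groups was the higher is not resolved for them. In the wild-type order of Fzd5, from 2i over CH and Fgf2/Activin to DMSO, the last 2 overlapped. For Fzd8 every pair of neighbours in the order of the 6 groups overlapped, so that order is not resolved.

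Fzd1, Fzd2, Fzd7, Fzd8, Fzd9 and Fzd10 have a single exon in the annotation. No 2 members had 75 or more bases in common at an identity of 95%, and among their best matches to each other were Fzd4 and Fzd8 at 84.8% over 92 bases, Fzd1 and Fzd7 at 84.6% over 395 bases and Fzd2 and Fzd1 at 79.3% over 1669 bases. Counting took no account of strand, and Fzd5 overlaps Gm38058 on the other strand over 17.8% of its exon length and Fzd6 overlaps Gm26704 over 3.155%. Those antisense genes held at most 5 and 9 counts in any sample, but reads over the shared part cannot be assigned to a strand. The same holds for genes named below, since an antisense gene covers 16.1% of Sfrp2, 15.1% of Ctnnb1 (together with a microRNA gene) and 13.1% of Rspo3, and for 14.1% of Pou5f1 above. Smaller parts are covered of Pdgfra (6.504%) and Otx2 (3.98%), each together with a further gene. The same is true of Axin2 (3.796%), Tspan12 (2.96%), Dab2 (2.874%), Eomes (2.84%), Adgra2 (1.264%), Krt7 (1.092%) and Vangl1 (0.112%).

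For the members called between CH and DMSO, the genes with the most similar pattern were sought over the 12 wild-type samples, by the root mean square (RMS) difference of log2 CPM after each gene's mean was removed. Around Fzd10 the nearest were Trh, the precursor of thyrotropin-releasing hormone (RMS 0.51), Alpl, the alkaline phosphatase of naive ES cells (0.55), and the β-catenin target Axin2 (0.62), against a spread of 2.34 for Fzd10 itself. Trh had 21.5 ± 2.68 CPM in DMSO, 995 ± 102 in CH, 797 ± 62.8 in 2i and 50.1 ± 12.2 in Fgf2/Activin. Alpl followed with 5.78, 223, 349 and 15.7 CPM. The Esrrb fl/fl groups were not used in this search. There Trh had 1140, 1050 and 1100 CPM in floxed and 869, 732 and 702 in 4OHT cells, and Alpl had 164, 171 and 168 against 48.0, 67.0 and 59.6, both lower where Fzd10 was higher. Axin2 had 162, 161 and 174 CPM in floxed and 201, 200 and 209 in 4OHT cells, higher as Fzd10 was. Fzd2 lay nearest to Ltbp1, a binding protein of latent TGF-β (RMS 0.10), Sestd1 (0.13) and the transcription factor Klf7 (0.15). Fzd7 lay nearest to the Notch regulator Dtx1 (0.18), Map7d1 (0.18) and Adgrv1 (0.21), Fzd8 to Kbtbd11 (0.28), Nalcn (0.29) and Spns2 (0.29), and Fzd1 to Synpo2 (0.27), Flrt1 (0.28) and Ly6h (0.29). Flrt1 and Ly6h were hardly detected in CH (0.036 and 0.0725 CPM) and 2i (0.0118 and 0.0 CPM). At such levels the prior count of 2 sets much of log2 CPM, so these 2 distances say little. The 12 samples share their groups and numbers, and no test goes with these distances.

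The genes around the receptors were taken from fixed lists. The median log2 fold change over all genes tested, beside which their medians stand, was 0.00 except for -0.02 between Fgf2/Activin and DMSO. Lrp5 and Lrp6, the co-receptors of Frizzleds in β-catenin signalling, stayed within the minimum fold between CH and DMSO: Lrp5 had 109 ± 21.6 CPM in CH and 181 ± 42.5 in DMSO (log2 fold change -0.75, SE 0.21, adjusted p = 0.014), and Lrp6 95.5 ± 2.65 and 80.1 ± 5.42 (0.24, SE 0.07, adjusted p = 0.0148). Of the 6 co-receptors and other Wnt-binding receptors, 1 was called higher in CH and none lower by edgeR (median log2 fold change 0.04), though all 6 had an unadjusted p under 0.05. At an adjusted p under 0.05 without minimum fold, 3402 of the 16413 genes tested were higher in CH and 3623 lower. Both DESeq2 and the replicate block called 1 lower, in a blocked fit that called 9.27% of all genes higher and 12.7% lower. The gene called was Ror2, a tyrosine kinase receptor of Wnt5a, at 47.8 ± 2.67 against 6.42 ± 4.17 CPM (log2 fold change 2.89, SE 0.49, adjusted p = 0.000698). After 4OHT, Ptk7, a pseudokinase of planar polarity, rose from 397 ± 26.5 to 1270 ± 174 CPM, 3.16-fold.

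Among the 9 genes of Frizzled turnover, 7 were tested. Znrf3 and Rnf43 encode ubiquitin ligases that remove Frizzleds from the membrane, and R-spondins with their Lgr receptors hold them back. Znrf3 had 45.8, 32.1 and 29.2 CPM in CH and 20.8, 17.3 and 17.6 in DMSO (log2 fold change 0.92, SE 0.17, adjusted p = 0.00129), under the minimum fold. It was called without CH replicate 3 (1.07, adjusted p = 0.00107) or DMSO replicate 1 (1.01, adjusted p = 0.00209). Between CH and DMSO 1 of the 7 was called higher (2 with the replicate block) and 1 lower, with a median log2 fold change of 0.58. Rspo3 rose, from 2, 3 and 4 counts in DMSO to 43, 56 and 25 in CH (adjusted p = 0.000217). Rspo1 fell from 8.48 ± 2.11 CPM in DMSO to 0.582 ± 0.194 in CH (log2 fold change -3.86, SE 0.31, adjusted p = 3.49e-06). Lgr4 rose in Fgf2/Activin, from 69.6, 60.9 and 52.5 CPM in DMSO to 254, 244 and 245 CPM (log2 fold change 2.01, SE 0.11, adjusted p = 2.18e-06). After 4OHT, 5 of the 7 were called higher and none lower, also by DESeq2, and all 7 had an unadjusted p under 0.05. At an adjusted p under 0.05 without minimum fold, 4652 of the 14893 genes tested there were higher and 4095 lower. With glmTreat, which tests against a log2 fold change of 1, Rnf43 (adjusted p = 0.0123), Lgr5 (adjusted p = 0.0674) and Rspo3 (adjusted p = 0.0875) lost their calls, which left 2, and Lgr5 lost its call in the fit of all 18 samples as well (adjusted p = 0.0172). Their median log2 fold change was 1.70, and Rspo1 went from 1.51 ± 0.196 to 7.53 ± 1.34 CPM.

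**Figure D4:**
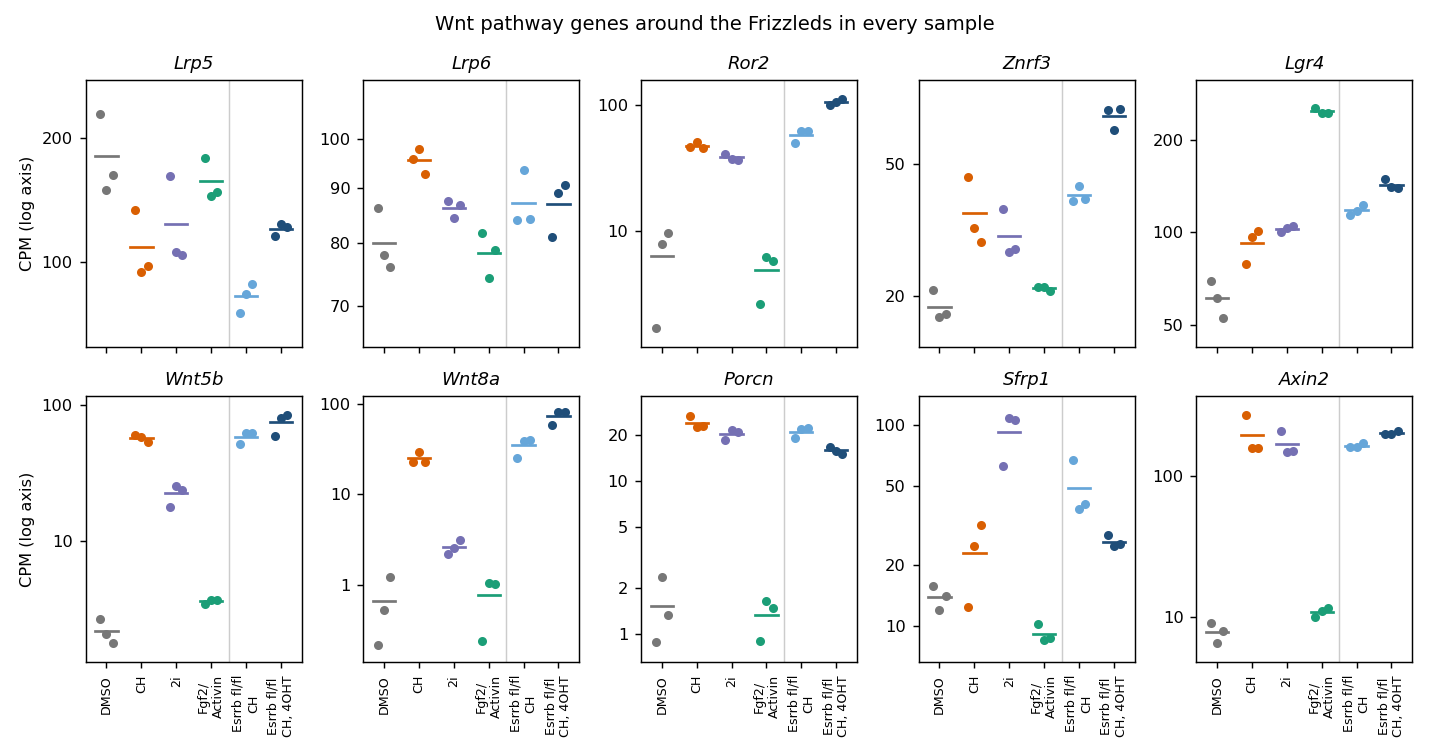
CPM of 10 genes of the Wnt pathway in every sample (log axis, scale differs by panel), with points for the 3 samples of a group and lines for the means. Wnt5b lies between 1.76 and 2.63 CPM in DMSO and between 53.7 and 60.2 in CH, and Lgr4 is highest in Fgf2/Activin at 244 to 254.

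The list of Wnt ligands and their secretion held 21 genes, of which 15 were tested in each fit. In CH 5 were called higher than in DMSO and 3 lower (median log2 fold change 0.18). Wnt5b, a ligand mostly linked to β-catenin-independent signalling, rose from 2.15 ± 0.440 to 57.6 ± 3.44 CPM (log2 fold change 4.71, SE 0.18, adjusted p = 2.06e-08), and Porcn, the acyltransferase that Wnt secretion needs, from 1.52 ± 0.744 to 23.9 ± 2.23 (3.96, SE 0.32). Wnt8a had 0.657 ± 0.518 CPM in DMSO and 25.2 ± 3.78 in CH (log2 fold change 5.29, SE 0.57, adjusted p = 3.04e-05). After 4OHT, 11 of the 15 were called higher and none lower, and the median log2 fold change was 3.05. The Wnt8a call was lost without all samples numbered 1 (log2 fold change 1.0) and without Esrrb floxed replicate 1 (0.86). It was also lost without Esrrb 4OHT replicate 2 (0.97) or 3 (0.98) and in the fit of all 18 samples (adjusted p = 0.0177). The replicate block, under which 13.5% of all genes were called higher and 4.24% lower, called 11 higher and 1 lower, all 15 had an unadjusted p under 0.05, and DESeq2 called 12 higher and 1 lower. Wls, the carrier that brings Wnts to the surface, rose 8.30-fold, with samples of 6.97, 3.93 and 4.01 against 50.1, 35.5 and 39.5 CPM, and Wnt3a was at 1, 2 and 2 counts in Esrrb floxed and at 51, 94 and 93 in Esrrb 4OHT cells.

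The secreted Sfrp proteins carry a Frizzled-like cysteine-rich domain and can catch Wnts. Of 5 such genes 4 were tested in the wild-type cells, and between CH and DMSO 1 was called lower (2 with the replicate block): Sfrp2, at 12.7 ± 1.12 against 34.4 ± 3.32 CPM (log2 fold change -1.45, SE 0.10, adjusted p = 1.49e-06). Sfrp1 had its highest level in 2i, at 92.0 ± 25.5 CPM against 23.0 ± 9.89 in CH (log2 fold change 2.00, SE 0.31, adjusted p = 0.00273), a call lost without 2i replicate 2 (1.88, adjusted p = 0.0144) or 3 (1.89, adjusted p = 0.0143) or CH replicate 2 (2.06, adjusted p = 0.0142). The Sfrp1 call was also lost with glmTreat (adjusted p = 0.0821) and in the fit of only the 6 samples compared (0.0323). Of the partners of Fzd4, Tspan12, which helps it bind Norrin, rose after 4OHT from 3, 10 and 9 counts to 111, 110 and 114 (log2 fold change 3.80, SE 0.28, adjusted p = 1.32e-05), while Fzd4 itself had overlapping groups. Of the 3 such partners tested, 1 was called higher after 4OHT (2 with the replicate block). Between CH and DMSO 2 of the 3, Tspan12 and Adgra2, were called lower in CH, as were 10.2% of all genes. Both calls were lost with glmTreat (adjusted p = 0.301 and 0.0241) and in the fit of only the 6 samples compared (0.02 and 0.0203). Among 8 planar polarity genes, 2 were higher and 1 lower in CH (median log2 fold change 0.16). Vangl1 went from 10.3 ± 3.01 to 54.2 ± 13.0 CPM, and Celsr2 from 39.2 ± 8.05 to 13.0 ± 2.69. The Celsr2 call was lost with glmTreat (adjusted p = 0.0401). Below the receptor, 1 of 12 transducers was called between CH and DMSO, lower in CH (median log2 fold change -0.01), and Ctnnb1, which encodes β-catenin, had 638 ± 64.4 against 705 ± 59.5 CPM (log2 fold change -0.16, SE 0.09). The transducer called was Dact3, at 2.95 ± 0.382 CPM in CH and 21.2 ± 19.1 in DMSO. Its call was lost without CH replicate 2 (adjusted p = 0.0124) or 3 (0.0143). It was also lost with glmTreat (adjusted p = 0.0198) and in the fit of only the 6 samples compared (0.0131).

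Other changes ran alongside those of the Frizzleds. Of 7 targets of β-catenin, CH raised 5 above DMSO by this test (median log2 fold change 5.54), and Axin2 had 273, 159 and 158 against 9.06, 6.49 and 7.86 CPM. After 4OHT 3 of the 7 were higher, while Axin2 had 203 ± 4.83 against 166 ± 7.27 CPM (log2 fold change 0.28, SE 0.05). All 5 targets of Nodal were called higher in Fgf2/Activin than in DMSO and also in CH.

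Markers of cell states moved with the groups as well. The summed level of the 7 primitive streak markers was 10.3, 14.5 and 14.6 CPM in DMSO, 702, 535 and 468 in CH, 122, 89.7 and 87.5 in 2i, and 13.1, 19.3 and 18.9 in Fgf2/Activin. In Esrrb floxed cells it was 77.8, 97.6 and 98.6 and in Esrrb 4OHT cells 433, 556 and 559 CPM. All 7 had counts in each group, with T (Brachyury) the most abundant in CH at 540 CPM and with 6 of the 7 under 1 CPM in DMSO. T carried most of the sum in CH, 2i and Esrrb 4OHT cells, and Eomes in DMSO and Fgf2/Activin. Of the 5 tested, 3 were called higher and 1 lower in CH than in DMSO. The one called lower was Eomes, the most abundant in DMSO, at 2.74 ± 1.54 CPM in CH and 11.4 ± 2.66 in DMSO (log2 fold change -2.08, SE 0.40, adjusted p = 0.00158). The Eomes call was lost with glmTreat (adjusted p = 0.0237) and in the fit of only the 6 samples compared (0.0174). The 6 formative markers summed to between 2400 and 3760 CPM in DMSO and 2940 and 3600 in Fgf2/Activin, and to between 483 and 881 in CH and 310 and 449 in 2i, mostly from Dnmt3b. The formative sum was between 944 and 1270 CPM in Esrrb floxed and between 530 and 808 in Esrrb 4OHT cells. Dnmt3b made up most of it there too, at 1070 ± 160 and 621 ± 116 CPM. Of these 6 markers, Fgf5 was called higher after 4OHT (16.4 ± 7.56 against 2.62 ± 1.60 CPM) and Otx2 lower (22.6 ± 8.85 against 67.7 ± 14.6). Their median log2 fold change was -0.14, and both calls were lost with glmTreat (adjusted p = 0.0277 and 0.0622). The 8 pluripotency markers had sums of 796 to 822 CPM in DMSO, 935 to 950 in Fgf2/Activin, 2600 to 2870 in CH and 3640 to 3820 in 2i, and of 2140 to 2430 in Esrrb floxed and 1230 to 1300 in Esrrb 4OHT cells.

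The 6 neural markers summed to between 71.1 and 90.9 CPM in DMSO, 18.6 and 27.9 in CH, 23.8 and 37.2 in Esrrb floxed and 203 and 209 in Esrrb 4OHT cells. Nes made up most of this, at 205 CPM in Esrrb 4OHT cells, where 5 of the 6 were under 1 CPM. Of the 2 tested after 4OHT, Nes was called higher and Pax6 lower. The Pax6 call was lost with glmTreat (adjusted p = 0.0528) and in the fit of all 18 samples (0.0797). The 6 trophectoderm markers reached between 71.3 and 120 CPM in CH, led by Cdx2 at 64.4, against 11.2 to 32.8 in DMSO, and 3 of them were under 1 CPM in CH. Cdx2 and Tfap2c were called higher in CH, whereas Krt7, the most abundant in DMSO at 13.6 ± 6.51 CPM, had 1.10 ± 1.44 CPM in CH and was not called (adjusted p = 0.0201). DESeq2 and the replicate block each called 1 of these markers lower. The Tfap2c call in CH was lost without CH replicate 2 (adjusted p = 0.0106), DMSO replicate 2 (0.0143) or DMSO replicate 3 (0.0131). It was also lost with glmTreat (adjusted p = 0.0364) and in the fit of only the 6 samples compared (0.0189). After 4OHT, Cdx2 and Krt7 were called higher. The Cdx2 call was lost without Esrrb 4OHT replicate 3 (log2 fold change 0.96) or Esrrb floxed replicate 3 (0.98). It was also lost with glmTreat (adjusted p = 0.69) and in the fit of all 18 samples (0.0146). The 6 primitive endoderm markers summed to between 8.98 and 10.2 CPM in DMSO and between 2.68 and 3.65 in CH, without overlap, and Sox7 and Dab2 were called lower in CH. Their sum was between 2.07 and 3.46 CPM in Esrrb floxed and between 5.08 and 6.11 in Esrrb 4OHT cells, where Gata4 and Pdgfra were called higher and Sox7 lower. The Gata4 call was lost with DESeq2 (adjusted p = 0.0232) and in the fit of all 18 samples (0.154). It was also lost without Esrrb 4OHT replicate 2 (0.035) or 3 (0.0282) or Esrrb floxed replicate 2 (0.0362) or 3 (0.0346). With glmTreat both Gata4 (adjusted p = 0.542) and Pdgfra (0.0102) lost their calls. No marker of these lists was without counts in any group. The part of these cell states in the differences between the Frizzleds was not tested.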

How the data were processed

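Per the labels and the methods, the authors aligned reads of poly(A) RNA to mm10 with TopHat2, counted them on Ensembl GRCm38 genes with HTSeq without strand, and deposited raw whole-number counts of 49671 genes, of which 49412 matched GENCODE M21, the source of symbols, positions and lengths. The Ensembl release is not given in the sources used here.

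Counts were tested with edgeR 4.0.16 (limma 3.58.1, R 4.3.3): TMM, filterByExpr, glmQLFit and glmQLFTest, with the 12 wild-type samples in one fit and the 6 Esrrb fl/fl samples in another. Thresholds follow the study's methods. CPM were scaled over all 18 samples, and log2 CPM used a prior count of 2. DESeq2 1.42.0 served as an alternative, and the steps were tested on simulated data. Total counts per sample, from 19915222 to 37158661, limit the precision of genes with few counts. Transcripts were compared with blastn 2.17.0, promoter windows came from RefSeq (GRCm38.p6), with plots from matplotlib 3.10.9 (Python 3.11.15).

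The same replicate numbers recur in every group of the labels. Deviations from the group means of same-numbered samples correlated in each pair. In wild-type cells the mean r was 0.569 (lowest 0.359, over 11200 genes). In Esrrb fl/fl cells it was 0.442 (lowest 0.382, over 10298 genes). Pairs with different numbers had mean r of -0.219 and -0.182, but reached 0.698 in wild-type and 0.432 in Esrrb fl/fl cells. Because the samples numbered 1 stood apart in every group, the remaining samples of a group tend to share a deviation from its mean. These correlations therefore cannot decide whether the other numbers pair the samples. The study states in general that experiments were repeated independently, but the labels do not tie a library to a culture, so p-values measure the spread between these samples, which may be partly technical.

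Genes named besides the Frizzleds are, of each list, the 4 with the highest mean CPM and those called in 2 or more of the 5 comparisons, and the 3 nearest genes to each member called between CH and DMSO or 2i and CH. Not every one is described. The members and lists were chosen with earlier results of these data known.

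Alternatives were DESeq2's size factors, no filter on low counts, a mean of at least 10 counts, DESeq2, an adjusted p under 0.05 without minimum fold, glmTreat, the replicate block, fits of 6 or of all 18 samples, coding length and each replicate left out. Leaving out all samples numbered 1 was added after seeing the data.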

Additional observations from a re-analysis of the deposited data

How the results depend on the processing

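Each of the 10 Frizzleds was recomputed in each comparison under 16 alternatives for the wild-type and 15 for the Esrrb fl/fl cells. Of these 790 values, 747 kept their direction and their side of the threshold, 15 lost a call, 17 gained one and 11, none of them called, changed sign. With 1 replicate left out at a time, the log2 fold changes that crossed 0 ranged as follows. Between 2i and CH, Fzd9 lay between -0.27 and 0.35 (above 0 without 2i replicate 2 or CH replicate 1) and Fzd10 between -0.2 and 0.03 (without CH replicate 1), and Fzd9 was 0.18 without all samples numbered 1. Between Fgf2/Activin and DMSO, Fzd3 lay between -0.32 and 0.04 and Fzd5 between -0.07 and 0.28, both crossing 0 without Fgf2/Activin replicate 1 and Fzd5 also without DMSO replicate 3, at -0.01. After 4OHT, Fzd4 lay between -0.32 and 0.34 (below 0 without Esrrb 4OHT replicate 2 or Esrrb floxed replicate 1) and Fzd9 between -0.03 and 0.33 (without Esrrb 4OHT replicate 3 or Esrrb floxed replicate 2).

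The number of members called higher between CH and DMSO was 1 and became 2 at an adjusted p under 0.05 without minimum fold. The number called lower between 2i and CH was 0 and became 1, Fzd3, at that threshold, with DESeq2, with the replicate block, in the fit of all 18 samples and without the samples numbered 1. The number lower between Fgf2/Activin and DMSO went from 0 to 1, and after 4OHT from 1 to 2, at the looser threshold. With glmTreat, which tests against a log2 fold change of 1, the members called higher went from 2 to 1 between 2i and Fgf2/Activin and from 6 to 2 after 4OHT, where Fzd1 (adjusted p = 0.025), Fzd2 (0.417), Fzd3 (0.0755) and Fzd8 (0.396) lost their calls. Those called lower went from 4 to 3 between CH and DMSO, without Fzd8 (adjusted p = 0.0109), and from 6 to 4 between 2i and Fgf2/Activin, without Fzd6 (adjusted p = 0.023) and Fzd9 (0.0181). At the looser threshold the members lower between CH and DMSO went from 4 to 6, with Fzd4 and Fzd6 added. Those lower between 2i and Fgf2/Activin went from 6 to 7 there, with Fzd4 added. Leaving out single replicates gave 1 to 2 members higher and 6 to 7 lower between 2i and Fgf2/Activin. It also gave 4 to 6 lower between CH and DMSO and 4 to 6 higher after 4OHT. The replicate block changed no call of a Frizzled other than that of Fzd3.

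Over all genes the calls for CH against DMSO ranged from 534 (glmTreat) to 3402 (looser threshold) higher, around 1233, and from 774 to 3623 lower, around 1674. By the same 2 settings they ran from 1 to 400 around 52 higher and from 46 to 716 around 274 lower for 2i against CH, from 45 to 464 around 148 and from 12 to 309 around 57 for Fgf2/Activin against DMSO, from 785 to 4080 around 1498 and from 1446 to 4290 around 2359 for 2i against Fgf2/Activin, and from 793 to 4652 around 1909 and from 174 to 4095 around 576 after 4OHT. Leaving out 1 replicate also moved the counts of the 2 comparisons with the fewest calls by over 1.5 times, and with them the background shares. For 2i against CH, the 52 higher became 34, 19 and 20 without 2i replicates 1, 2 and 3 and 17 and 30 without CH replicates 2 and 3, and the 274 lower became 174, 125 and 124 without 2i replicates 1, 2 and 3 and 158 without CH replicate 2. For Fgf2/Activin against DMSO, the 148 higher became 84 and 88 without Fgf2/Activin replicates 2 and 3 and 98 and 85 without DMSO replicates 2 and 3, and the 57 lower became 28 and 30 without Fgf2/Activin replicates 2 and 3 and 36 without DMSO replicate 3. Without all samples numbered 1 these 4 counts were 214, 554, 318 and 181. Of 2528 recomputed counts of list members, 280 moved by more than 1.5 times, and of 2708 values of other genes, 215 lost and 14 gained a call and 0 changed sign. Those values cover named genes in comparisons where they were called, and a few uncalled ones. A change of sign was therefore unlikely from the outset. Fzd1 and Fzd9 had few counts in some groups, and the part of depth in the spread of their values was not tested.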
